A study of Homo sapiens with 21 samples.

Results

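The CCL2 chemokine cluster on human chromosome 17 was one of 53 loci examined by Tri-C, a multiway chromosome conformation capture assay that reads out which restriction fragments lie together with a chosen viewpoint in single ligated molecules. The locus was taken as every fragment-pair table recorded for CCL2, which gave 7 of the 371 deposited tables, together with the neighbouring chemokine genes up to the boundary site. All libraries came from BLaER1, a leukemia line of human B cells that is converted into induced macrophages (iMacs) through the transcription factor CEBPA when 17β-estradiol, IL-3 and CSF-1 are added. Tables from an enhancer viewpoint were made from cells collected at 96 h after induction with depletion of CTCF, and from BLaER cells before induction (0 h, no factors added), at 24 h and at 96 h. Tables from a viewpoint at a CTCF-binding site (CBS), called the boundary site here, were made from BLaER cells alone, for the same 3 times. The depleted cells were a BLaER1 subclone carrying CTCF fused to an auxin-inducible degron, treated with indole-3-acetic acid from the moment of induction. The 96 h cells that they are set against were BLaER cells without the degron, so the subclone, the auxin and the loss of CTCF cannot be told apart. Each table pools the 3 replicates of its group. Every test below therefore compares pooled libraries, not conditions, with intervals that cover counting error only. Single reads can give several counts, which the tests treat as independent, so the intervals can be too narrow even for this error. The tables hold contacts, so neither the identity of the cells nor the expression of the genes was checked here.

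The cluster holds 6 genes for CC chemokines, small secreted proteins that attract leukocytes through G protein-coupled receptors. CCL2, CCL7, CCL8 and CCL13 are monocyte chemoattractant proteins, CCL2 being the classical ligand of CCR2 and a typical product of activated macrophages. CCL11 (eotaxin) attracts eosinophils through CCR3, and CCL1 is a ligand of CCR8. Many gene clusters lie in chromatin domains whose edges are bound by CTCF, a protein that stalls loop-extruding cohesin in an orientation-dependent manner, and within such domains enhancers can reach promoters over long distances.

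All positions are given in hg38. The enhancer viewpoint was the NlaIII fragment chr17:34221046-34221198, which is intergenic, and the boundary viewpoint was the NlaIII fragment chr17:34361265-34361496, which lies in an intron of CCL1, 140.26 kb downstream. Between them lie CCL2 (gene chr17:34255274-34257208, plus strand; ENSG00000108691.10), whose start is 34.16 kb from the enhancer, and then CCL7 (49.1 kb), CCL11 (64.6 kb), CCL8 (98.31 kb) and CCL13 (135.36 kb), all on the plus strand. CCL1 starts at 34363233 on the minus strand, 1.85 kb beyond the centre of the boundary fragment. Apart from the cluster, TMEM132E, which encodes a transmembrane protein, was the only protein-coding gene with its canonical start within 500 kb of the enhancer, at 358.46 kb. On the other side lies the body of ASIC2, an acid-sensing ion channel gene, which is annotated up to 34174964. The methods of the study annotated further elements from pairwise contacts of the same cells, and a pair of these was examined here. The first is a CTCF site upstream of the enhancer (7.5-kb window chr17:34196442-34203941, centre at -20.93 kb), and the second is a group of enhancers between the viewpoint and CCL2 (window chr17:34240933-34248432, centre at 23.56 kb), called the downstream enhancers.

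The 2 captured fragments and the CTCF-like match at the upstream CTCF site are shown because contacts below are measured from the fragments, and the site is the other edge of the interval that they span. They are read from the plus strand of hg38, and capitals mark a match to an abbreviated CTCF core, searched on both strands, that reads CC, 3 bases of any kind, AG, 2 bases of any kind and GGC.
Upstream CTCF site, chr17:34200066-34200117: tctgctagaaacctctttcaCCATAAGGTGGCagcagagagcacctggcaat
Enhancer viewpoint fragment: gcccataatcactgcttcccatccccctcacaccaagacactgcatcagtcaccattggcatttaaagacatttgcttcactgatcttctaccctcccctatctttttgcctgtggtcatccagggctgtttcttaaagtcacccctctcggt
Boundary viewpoint fragment: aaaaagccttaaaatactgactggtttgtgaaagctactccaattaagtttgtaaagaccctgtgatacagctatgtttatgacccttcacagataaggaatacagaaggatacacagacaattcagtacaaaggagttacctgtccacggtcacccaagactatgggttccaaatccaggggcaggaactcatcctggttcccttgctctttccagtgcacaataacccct
The upstream match reads in the plus direction, toward the cluster. Neither viewpoint fragment holds these letters. In the 1000 bp centred on the viewpoint, the core was found at 15 of 51 boundary viewpoints (29.4%) and at 4 of 51 enhancer viewpoints (7.84%). The CCL2 boundary viewpoint was not among them. The upstream match came from a wider search, 1000 bp to each side of the site's centre, so these shares are not a like background for it.

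The enhancer tables were deeper than the boundary tables. A count records how often a given pair of fragments, the reporters, was ligated to the viewpoint, and the total is the sum of counts with both reporters within 1 Mb. The enhancer totals were 81764 in CTCF-depleted cells, and 79122 at 0 h, 88860 at 24 h and 64927 at 96 h. The boundary totals were 38512 at 0 h, 47313 at 24 h and 42092 at 96 h, in a series whose loci had totals of 12563 to 144736. A count was called distant when the viewpoint and its 2 reporters were all more than 10 kb apart. Distant counts made up 21.6% of the total in CTCF-depleted cells and 30.2% at 96 h, whereas the other 5 tables lay between 28.2% and 32.1%. The depleted table thus had the lowest share of distant counts. Values scaled to the distant total are given for its promoter windows, elements and numbers of bins called. Its values for pairs of elements, single bins, ranks and receptor genes are given on the total within 1 Mb alone, and may depend on this choice.

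The enhancer met the CCL2 promoter more often at 96 h, but not at 24 h. Of the total, 2.08% of counts at 0 h, 1.99% at 24 h and 2.78% at 96 h had a reporter in the 12-kb window around the CCL2 start (1643, 1765 and 1806 counts). The value at 96 h stood clear of the others, and those at 24 h and 0 h were close together. The log2 odds ratio was 0.43 (95% interval 0.33 to 0.53) for 96 h over 0 h and 0.50 (0.40 to 0.59) for 96 h over 24 h, with adjusted p = 2.38e-18 and 6.13e-24 (exact conditional binomial test, Benjamini-Hochberg over 51 loci, of which 68.6 and 60.8% were called up). A change was called at an adjusted p under 0.05. For 24 h over 0 h it was -0.07 (-0.16 to 0.03; adjusted p = 0.212 by the same exact test, 54.9% of loci called up). With the distance limit of 20 kb in place of 10 kb, the value for 24 h over 0 h was -0.18 (adjusted p = 0.003003, exact test), and scaled to the whole chromosome it was -0.14 (adjusted p = 0.0074387, exact test), both of them calls of a fall.

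CCL2 had low values among the iMac loci, those that the study chose for genes upregulated in iMacs, for 24 h and for 96 h over 0 h. At 24 h, 77.8% of the 36 iMac loci gained contact between enhancer and promoter by the same test and 2.78% lost it, and CCL2 had the second lowest value of the 36 (median 0.39). At 96 h over 0 h, 97.2% of iMac loci gained contact and CCL2 ranked 31 from the highest, with a median over the 36 loci of 1.00. Its late gain was closer to the middle of the iMac loci, at rank 20 from the highest for 96 h over 24 h (median 0.51; 86.1% called up). These ranks describe the loci and were not tested.

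**Figure D1:**
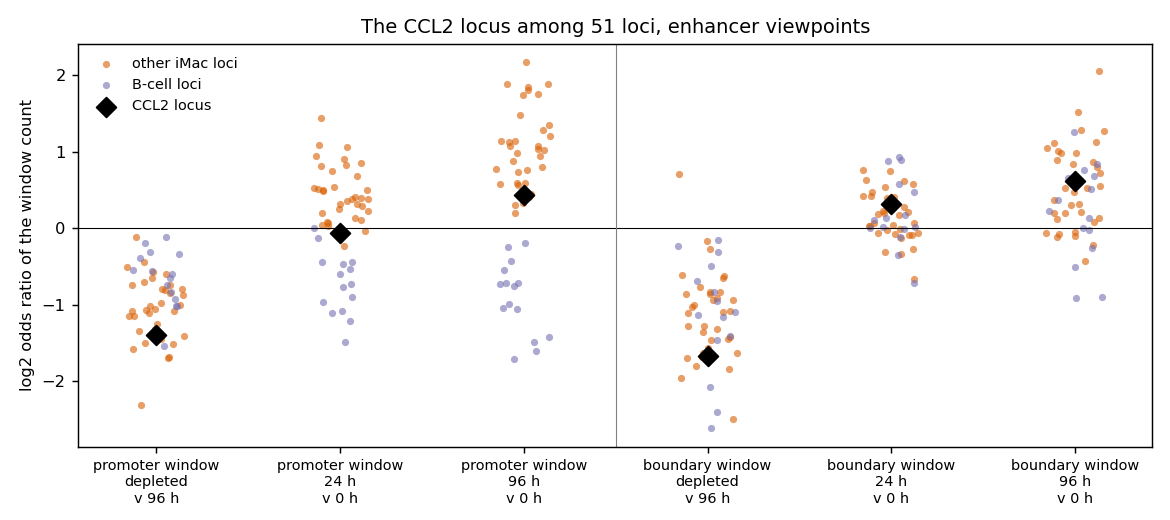
Log2 odds ratios of the window count around the promoter (left) and around the boundary site (right) from the enhancer viewpoints of 51 loci, for CTCF-depleted over 96 h, 24 h over 0 h and 96 h over 0 h. Each point is a locus, orange for the iMac loci and violet for the B cell loci, spread sideways at random, and the diamond is CCL2, which lies at -0.07 at 24 h and 0.43 at 96 h for the promoter window and at 0.31 and 0.61 for the boundary window.

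Contact with the boundary site, in contrast, increased at both steps in the view from the enhancer. The 12-kb window around the boundary fragment held 1.58% of counts at 0 h, 1.95% at 24 h and 2.39% at 96 h. The intervals of the 3 values did not overlap (1.49 to 1.67, 1.86 to 2.05 and 2.28 to 2.51%). The log2 odds ratio was 0.31 for 24 h over 0 h (0.21 to 0.42; adjusted p = 1.94e-08), 0.61 for 96 h over 0 h (adjusted p = 1.65e-28) and 0.30 for 96 h over 24 h (adjusted p = 1.05e-08; exact binomial tests over 51 loci, 45.1, 60.8 and 58.8% of which were called up). This window also covers the starts of CCL13 and CCL1, which cannot be separated from the boundary site at this window width. In the reverse view, from the boundary site to the enhancer, 24 h over 0 h was short of the threshold (0.15; adjusted p = 0.109, exact binomial test).

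The 5 other chemokine promoters and CCL2 were then compared in 7.5-kb windows, with p-values adjusted over the promoters of all protein-coding genes within 500 kb at the 51 loci (480 to 496 windows per comparison). At 24 h over 0 h, 3 of the 6 rose, CCL11 (log2 odds ratio 0.20), CCL8 (0.24) and CCL1 (0.43), beside 22.6% of all windows called up. CCL7 had 0.13, CCL13 had 0.12 and CCL2 had -0.05, each short of the threshold (adjusted p = 0.218, 0.139 and 0.589 by the exact binomial test). At 96 h over 0 h all 6 rose, with CCL7 lowest at 0.27 and CCL1 highest at 0.75, beside 28.5% of all windows. With a distance limit of 20 kb in place of 10 kb, 4 rose, while CCL2 had 0.15 (adjusted p = 0.0836) and CCL7 had 0.11 (adjusted p = 0.370, both by the exact test). The median of the 6 was 0.37 and that of all windows was 0.02. At 96 h over 24 h, 4 of the 6 rose, CCL2 (0.44), CCL1 (0.32), CCL8 (0.27) and CCL13 (0.22), beside 15.2% of all windows, while CCL7 and CCL11 had 0.15 and 0.12. In windows of 12 kb both passed the test, at 0.29 and 0.19, and in windows of 20 kb at 0.30 and 0.21. The windows of CCL13 and CCL1 overlap each other and that of the boundary site, so these are not separate measurements.

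In windows of equal width, CCL2 had the highest share of counts of the 6 promoters at 0 h (1.37%), at 24 h (1.33%) and at 96 h (1.80%). CCL1, at the far end of the cluster, had 0.872% at 0 h, 1.17% at 24 h and 1.46% at 96 h, and ranked above CCL7, CCL11 and CCL8 from 24 h on. CCL7, the next gene after CCL2, had 0.761, 0.829 and 0.916% at the 3 times, and its window held 40 NlaIII fragments, against 38 in that of CCL2. TMEM132E had 0.128% at 0 h, 0.115% at 24 h and 0.0801% at 96 h, and fell by 0.67 on the log2 scale for 96 h over 0 h (adjusted p = 0.01583, exact test, 22.2% of windows called down).

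**Figure D2:**
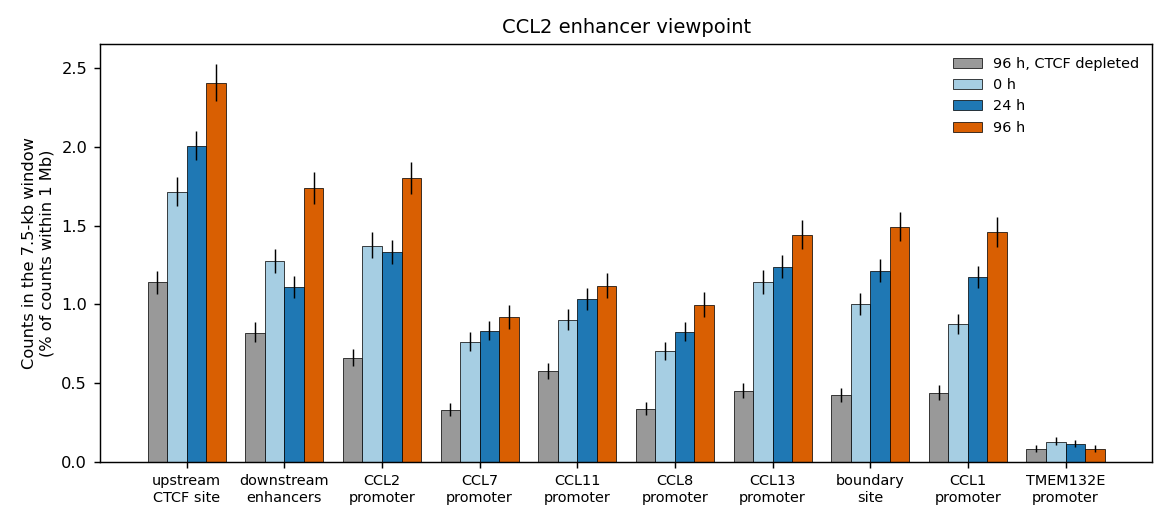
Share of counts with a reporter in the 7.5-kb window around each element, as percent of the total within 1 Mb from the CCL2 enhancer viewpoint, with exact 95% intervals, elements in genomic order. In each chemokine window the CTCF-depleted library is the lowest and the 96 h library the highest, and TMEM132E lies below 0.13% throughout.

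Seen from the enhancer, CCL2 gained contact later than several of its neighbours. Whether CCL2 and another window had changed unequally was tested by Fisher's exact test on the counts of both windows. The 50 comparisons were chosen after these values were seen and adjusted together. A count with a reporter in each of the windows compared entered on both sides. Between 24 h and 0 h, CCL2 lagged behind the boundary window (log2 ratio of odds -0.32, -0.50 to -0.14; adjusted p = 0.0024187), the upstream CTCF site (-0.27; adjusted p = 0.0027085), CCL1 (-0.47; adjusted p = 6.45e-06), CCL8 (-0.28; adjusted p = 0.015039) and CCL11 (-0.24; adjusted p = 0.030816, all by Fisher's exact test). Between 96 h and 24 h it moved ahead of CCL7 (0.29; adjusted p = 0.0098667), CCL11 (0.32; adjusted p = 0.0025276) and CCL13 (0.22; adjusted p = 0.031272, Fisher's exact test), while the differences from CCL8, CCL1, the boundary window and the upstream CTCF site did not pass (adjusted p = 0.162, 0.274, 0.188 and 0.0538, Fisher's exact test). The downstream enhancers were the only window tested that gained more than CCL2 in this step (-0.21; adjusted p = 0.033206, Fisher's exact test).

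The downstream enhancers had a higher value for 96 h over 24 h than the other 9 windows seen from the enhancer. Their window held 1.27% of counts at 0 h, 1.11% at 24 h and 1.74% at 96 h. The value for 24 h over 0 h was -0.20 (-0.33 to -0.08) and that for 96 h over 24 h was 0.66 (0.54 to 0.79). The upstream CTCF site held 1.71, 2.01 and 2.41% at 0, 24 and 96 h, with 0.23 (0.13 to 0.34) for 24 h over 0 h and 0.27 (0.17 to 0.37) for 96 h over 24 h. These windows carry no adjusted p of their own. Each of the 2 bins of 5 kb that cover most of the downstream enhancer window, starting 20 and 25 kb from the viewpoint, passed the test over all bins for 96 h over 24 h (0.66 and 0.72; adjusted p = 1.96e-14 and 1.01e-21, exact test, 13.5% of 9551 bins called up). The value for 24 h over 0 h was -0.080 with a distance limit of 5 kb, -0.062 with windows of 20 kb and -0.12 with each fragment pair counted once, the intervals of all 3 including 0, and -0.33 with a distance limit of 20 kb.

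Along the locus at 96 h, most gains lay between the CTCF sites and most losses outside them. For 96 h over 0 h, 21 of the 28 bins of 5 kb between the upstream CTCF site and the boundary site rose and 1 fell (20.7% of bins at the 51 loci were called up and 20.2% down). Upstream of this interval 2 of 96 bins rose and 53 fell, and downstream of it 9 of 72 rose and 39 fell. Bins were assigned by their midpoints, so the bin with the boundary fragment counts as downstream and is among the rises there. The median log2 odds ratio was 0.43 inside, -0.54 upstream and -0.61 downstream. At 24 h over 0 h, 4 bins inside rose and 2 fell, and 9 of the 168 outside rose and 32 fell (12.1% up and 11.6% down over the 51 loci). The 24 h result inside depended on the total used. With distant counts 8 bins inside rose and none fell, and with the whole chromosome 2 rose and 4 fell. Between 96 h and 24 h, 16 of 28 bins inside rose and none fell, whereas of the 168 bins outside 8 rose and 50 fell (13.5% up and 11.1% down over the 51 loci).

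Several of the gains outside the interval were next to it. Of the 5 bins with the largest rise for 96 h over 0 h and at least 50 counts, 3 lay just past the boundary site, at 145, 155 and 160 kb from the enhancer (chr17:34366123-34371122, chr17:34376123-34381122 and chr17:34381123-34386122). Their counts were 560, 329 and 373 at 96 h, against 402, 240 and 259 at 0 h, and their log2 odds ratios were 0.77, 0.74 and 0.81. The bin with the boundary fragment was also among the 5 (0.76). The bin with the largest rise lay apart from these, at -455 kb in the body of ASIC2 (140 counts at 96 h and 93 at 0 h; 0.87, adjusted p = 4.28e-05, exact test). The 5 largest falls were all outside, with -1.90 in the bin starting at -190 kb and -1.89, -1.89, -1.49 and -1.46 in bins starting 455 to 485 kb downstream, and each rested on 15 to 26 counts at 96 h.

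**Figure D3:**
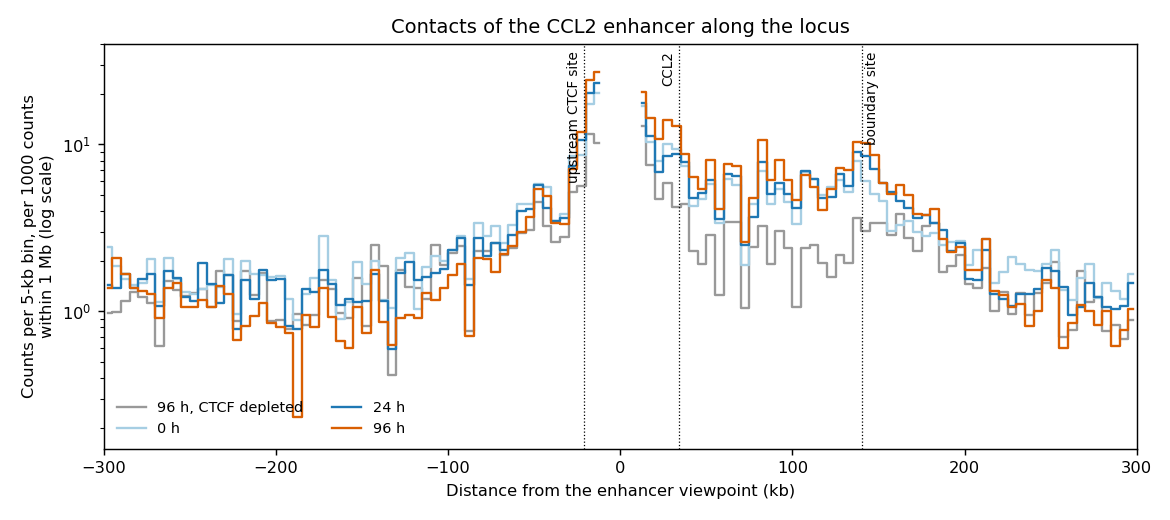
Counts in 5-kb bins from the CCL2 enhancer viewpoint, per 1000 counts within 1 Mb on a log axis, against the distance from the viewpoint in kb, with the bins within 10 kb left out. Between the upstream CTCF site and the boundary site the CTCF-depleted line runs lowest and the 96 h line highest in most bins, and farther out on either side the 96 h line lies below the 0 h line in most bins.

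Pairs of reporters showed the same division. Both reporters lay between the upstream CTCF site and the boundary site in 14.0% of distant counts at 0 h, 16.8% at 24 h and 24.5% at 96 h, with log2 odds ratios of 0.31 (0.24 to 0.38) for 24 h over 0 h and 0.99 (0.92 to 1.06) for 96 h over 0 h. Crossing was measured as the share of distant counts reaching downstream of the enhancer that went beyond the boundary site. Counts with a reporter in the 12-kb window around the boundary site were left out of this share. Crossing was 60.9% at 0 h, 58.9% at 24 h and 50.5% at 96 h. The fall was 0.12 on the log2 odds scale for 24 h over 0 h (adjusted p = 0.00024) and 0.61 for 96 h over 0 h (adjusted p = 6.5e-77, Fisher's exact test over 51 loci, of which 43.1 and 70.6% were called down). With a distance limit of 20 kb the change at 24 h was -0.03 (adjusted p = 0.557, Fisher's exact test).

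CTCF-depleted cells had lower contact throughout the cluster. The CCL2 promoter window of 12 kb held 1.07% of counts in CTCF-depleted cells and 2.78% at 96 h, a log2 odds ratio of -1.40 (-1.52 to -1.28; adjusted p = 1.22e-130, exact binomial test, 92.2% of 51 loci called down). The boundary window held 0.763% in CTCF-depleted cells and 2.39% at 96 h (-1.67; adjusted p = 7.7e-147, exact binomial test, 92.2% called down). Scaled to distant counts, the values were -0.96 and -1.23. CCL2 ranked 9 from the lowest of the 36 iMac loci for the promoter window (median -1.06) and 7 from the lowest for the boundary window (median -1.10).

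All 6 chemokine promoters fell in the 7.5-kb windows, beside 45% of the 480 windows measured. The median was -1.52 over the 6 and -0.42 over all windows. CCL11 fell least, to 0.574% in depleted cells, against 1.12% at 96 h (-0.97, -1.14 to -0.80). CCL1 fell most, to 0.437% in depleted cells, against 1.46% at 96 h (-1.75, -1.93 to -1.58), and CCL13 (-1.69), CCL8 (-1.58), CCL7 (-1.47) and CCL2 (-1.46) lay between them. CCL2 fell by more than CCL11 (difference -0.49; adjusted p = 0.000279), the downstream enhancers (-0.36; adjusted p = 0.0024187) and the upstream CTCF site (-0.37; adjusted p = 0.0013337), and by less than CCL1 (0.29; adjusted p = 0.031723) and the boundary window (0.37; adjusted p = 0.0048314, all by Fisher's exact test). The upstream CTCF site and the downstream enhancers each had -1.10. Scaled to distant counts, these 2 elements had -0.64 and -0.63, and the 6 promoters lay between -1.30 (CCL1) and -0.49 (CCL11), each promoter still called down. TMEM132E had 0.0832% in depleted cells and 0.0801% at 96 h (68 and 52 counts; 0.05, -0.49 to 0.60). Scaled to distant counts, TMEM132E had 0.54 (adjusted p = 0.0916, exact binomial test).

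The share in depleted cells was also below that of the starting B cells at every chemokine promoter. CCL2 had 0.660% in depleted cells and 1.37% at 0 h, and CCL7 had 0.331% and 0.761% in the same order. These are shares of the total within 1 Mb, of which distant counts made up 21.6% in depleted cells and 32.1% at 0 h. CCL11, which fell least, had 469 counts in depleted cells, where distant counts numbered 17698. At 0 h it had 714 counts, and distant counts numbered 25426. This pair of states was not tested, since the libraries differ in both time and CTCF.

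All 28 bins between the CTCF sites fell in depleted cells, with a median of -1.43, and all 28 also fell with distant counts as the total (median -0.97). Over the 51 loci, 46.4% of bins were called down and 7.37% up. Outside the interval 26 of 168 bins rose and 26 fell, and the median was 0.07. With distant counts as the total, 86 of these 168 rose and 8 fell, so the direction outside the interval depends on the scaling. The bin with the largest rise, at -190 kb, had 79 counts in depleted cells and 15 at 96 h (2.03), and the bin with the largest fall, starting 100 kb downstream near the end of CCL8, had 87 and 303 counts in the same order (-2.13). Both reporters lay inside in 8.60% of distant counts in depleted cells and 24.5% at 96 h (-1.79, -1.88 to -1.70). Crossing of the boundary site was 70.3% in depleted cells and 50.5% at 96 h, a log2 odds ratio of 1.22 (1.15 to 1.29; adjusted p = 5.44e-236, Fisher's exact test, 92.2% of 51 loci called up), and it exceeded the 60.9% of 0 h.

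**Figure D4:**
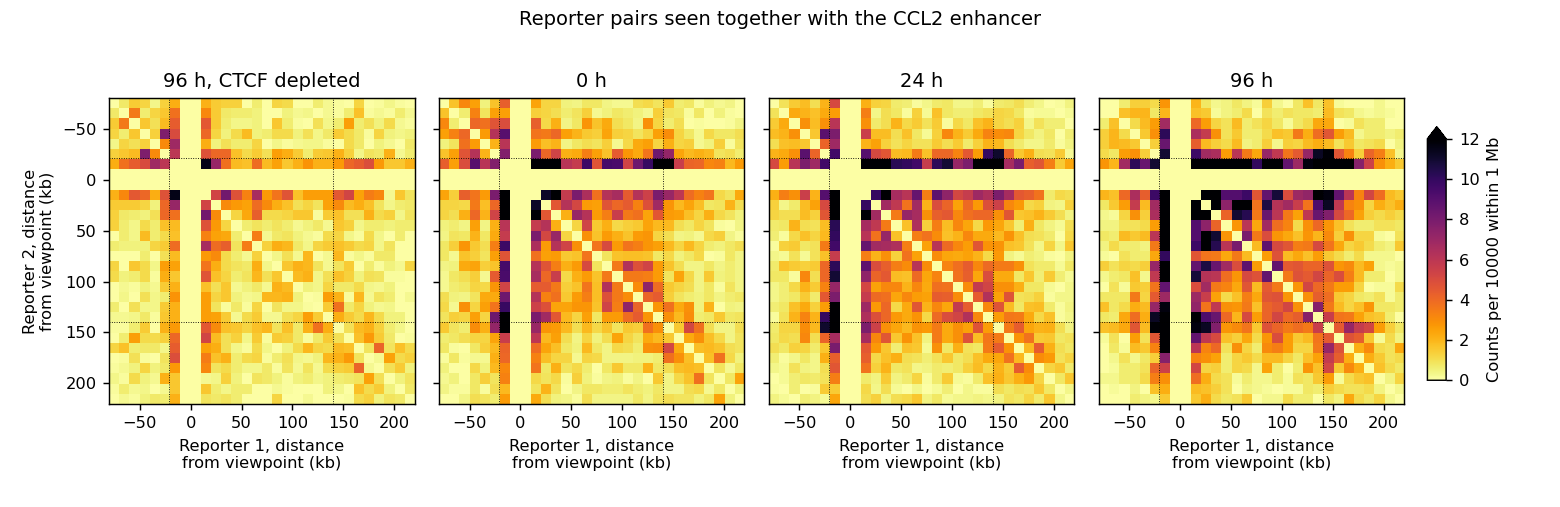
Reporter pairs seen with the CCL2 enhancer in cells of 10 kb, as counts per 10000 within 1 Mb, with both axes as distance from the viewpoint in kb and dotted lines at the upstream CTCF site and the boundary site. Colours stop at 12, and of 465 cells none passes this in CTCF-depleted cells, 6 do at 0 h, 7 at 24 h and 18 at 96 h.

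Three-way contacts were resolved for the elements, in counts that had a reporter in each of 2 windows. They were few, the windows of CCL13, CCL1 and the boundary site share fragments, and no test of whether a triple exceeds what its pairwise contacts would give was made. The triple of the enhancer, the CCL2 promoter and the boundary site, in 12-kb windows, had 21 counts in CTCF-depleted cells, and 42 at 0 h, 53 at 24 h and 90 at 96 h. The log2 odds ratio was 0.16 for 24 h over 0 h (adjusted p = 0.772), 1.38 for 96 h over 0 h (adjusted p = 8.07e-07) and -2.41 for depleted over 96 h (adjusted p = 2.1e-14, exact binomial tests over 26, 29 and 30 loci measured, of which 15.4 and 55.2% were called up and 70% down). As a share of the total, this triple was 0.139% at 96 h.

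The triple that joins both CTCF sites at the enhancer had its lowest count in depleted cells. In 7.5-kb windows, the upstream CTCF site and the boundary site were seen together with the enhancer in 8 counts in CTCF-depleted cells, and in 65 at 0 h, 100 at 24 h and 89 at 96 h. The depleted value over that at 96 h was -3.73 on the log2 scale (-5.07 to -2.77). With CCL2 as the partner of the upstream CTCF site there were 21 counts after depletion, and 38, 66 and 74 at 0, 24 and 96 h (-2.13, -2.92 to -1.44, for depleted over 96 h), and the intervals of the 2 triples overlapped. Pairs of chemokine promoters at the enhancer were rarer. CCL2 together with CCL13 had 7 counts after depletion, and 26, 24 and 44 at the 3 times. CCL2 with CCL8 had 10 counts after depletion, and 17, 21 and 20 at the 3 times. CCL2 with CCL11 had 20 counts after depletion, and 22, 28 and 30 at the 3 times. The downstream enhancers with CCL11 had 18 counts after depletion, and 13 at 0 h, 39 at 24 h and 46 at 96 h.

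From the boundary site, the gain at CCL2 was called for 96 h over 0 h and over 24 h, but not for 24 h over 0 h. The 12-kb CCL2 window held 1.15% of counts at 0 h, 1.31% at 24 h and 1.92% at 96 h. The log2 odds ratio was 0.75 (0.58 to 0.92; adjusted p = 1.81e-18) for 96 h over 0 h and 0.56 (adjusted p = 3.22e-12) for 96 h over 24 h, and 0.19 (adjusted p = 0.0642) for 24 h over 0 h (exact binomial tests over 48 loci measured, of which 66.7, 54.2 and 39.6% were called up). The enhancer window held 1.56% at 0 h, 1.72% at 24 h and 1.96% at 96 h. For 24 h over 0 h it had 0.15 (-0.01 to 0.30; adjusted p = 0.109, exact test, 14 of 51 loci called up), short of the threshold. For 96 h over 0 h it had 0.33 (adjusted p = 3.97e-05, exact test, 54.9% of loci called up). The gain at CCL2 exceeded that at the enhancer by 0.45 (0.18 to 0.73; adjusted p = 0.0048314, Fisher's exact test on the 7.5-kb windows). Between 24 h and 0 h, no difference between CCL2 and another window passed in this view. The lowest adjusted p was 0.225, for the upstream CTCF site (Fisher's exact test). The triple of the boundary site, the enhancer and CCL2 had 23 counts at 0 h, 32 at 24 h and 52 at 96 h (1.03 for 96 h over 0 h, 0.32 to 1.83; adjusted p = 0.008648, exact test over 27 loci measured, 48.1% called up). Depleted cells were not analysed here from the boundary site.

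Of the 4 chemokine promoters far enough from the boundary site to be measured, 3 rose for 96 h over 0 h, beside 18.9% of 476 windows. CCL8 had 1.21% at 96 h and 0.698% at 0 h (0.80), CCL2 had 1.29% and 0.748% (0.79) and CCL7 had 0.713% and 0.473% (0.59), each pair in the same order. CCL11 had 0.696% at 96 h and 0.592% at 0 h (0.23; adjusted p = 0.167, exact binomial test), but was called up in windows of 12 kb (0.33; adjusted p = 0.0065133) and of 20 kb (0.31; adjusted p = 0.0038204, exact test). For 24 h over 0 h, CCL11 was the only one of the 4 that rose (0.769% at 24 h and 0.592% at 0 h; 0.38; adjusted p = 0.015285, exact test, 14.7% of windows called up). For 96 h over 24 h, CCL2 (0.62), CCL8 (0.64) and CCL7 (0.46) rose, beside 9.83% of windows, and CCL2 exceeded CCL11 by 0.76 (adjusted p = 6.45e-06, Fisher's exact test). The differences of CCL2 from CCL7, CCL8 and the downstream enhancers in this step did not pass (adjusted p = 0.428, 0.963 and 0.428, Fisher's exact test). CCL13 and CCL1 lie within 5 kb of the boundary viewpoint and were not measured from it.

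Of the windows measured from the boundary site, the upstream CTCF site, at -161.19 kb, had the highest share. The study had annotated it from pairwise contacts that included those of the boundary viewpoint, so a high share here is no independent finding. The upstream CTCF site held 3.53% of counts at 0 h, 4.49% at 24 h and 4.55% at 96 h, more than the other 7 windows at each time. Per NlaIII fragment in the window, which allows for fragment density, it had 80.1, 102 and 103 counts per 100000 at 0, 24 and 96 h, whereas CCL2 had 19.7, 22.1 and 33.8. The gain lay before 24 h, with 0.36 (0.27 to 0.46) for 24 h over 0 h and 0.02 (-0.07 to 0.11) for 96 h over 24 h. CCL2 gained more than this site between 24 h and 96 h (0.60; adjusted p = 7.39e-07, Fisher's exact test). Three-way counts of the boundary site with the upstream CTCF site and CCL2 were 23 at 0 h, 42 at 24 h and 68 at 96 h, and those with the upstream CTCF site and CCL8 were 20, 47 and 73.

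**Figure D5:**
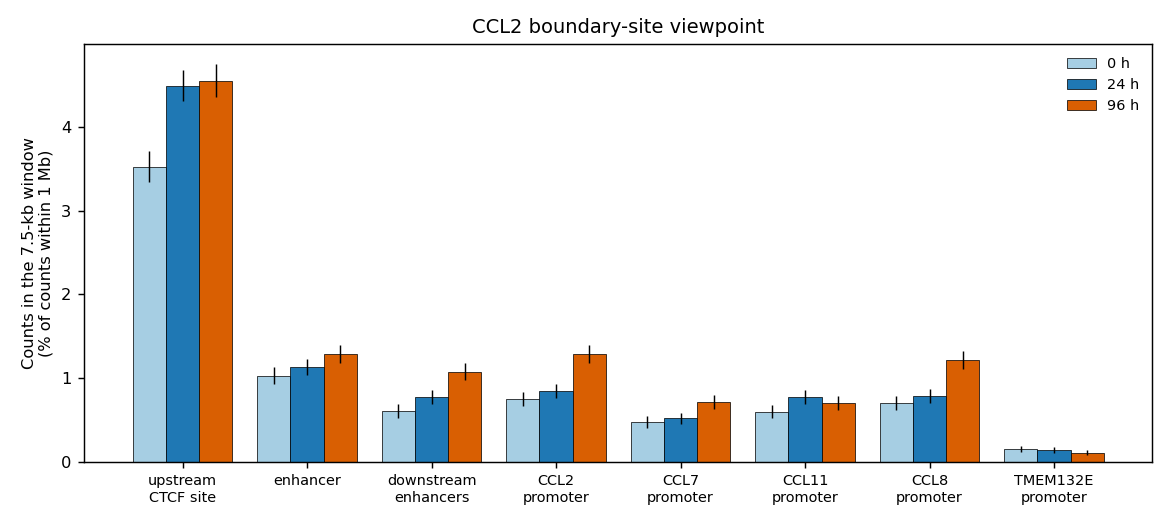
Share of counts with a reporter in the 7.5-kb window around each element, as percent of the total within 1 Mb from the CCL2 boundary-site viewpoint, with exact 95% intervals, for each of the 3 times. The upstream CTCF site exceeds 3.5% at each time, and CCL2 and CCL8 are highest at 96 h.

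Bins seen from the boundary site were divided at the site itself. For 96 h over 0 h, 20 of 30 bins between the upstream CTCF site and the boundary site rose and none fell, beside 14.7% of bins called up and 9.69% called down over the 51 loci. Downstream of the boundary none of 98 bins rose and 16 fell, and beyond the upstream CTCF site 7 of 68 rose and 4 fell. For 24 h over 0 h, 5 of the 30 bins inside rose and none fell, and downstream none of 98 rose and 2 fell (9.31% up and 3.62% down over the 51 loci). Distant counts with both reporters inside were 12.1% at 0 h, 14.3% at 24 h and 19.4% at 96 h. The bins over the CCL2 promoter and just upstream of it, starting at -110 and -115 kb, were among the 5 largest rises for 96 h over 0 h (394 and 405 counts at 96 h, against 190 and 206 at 0 h; 0.93 and 0.85).

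A receptor locus of the same series, CCR1, was set beside the ligand cluster because it holds genes for receptors of CC chemokines, among them CCR1, CCR2 and CCR3. From its enhancer, contact with the CCR1 promoter had a log2 odds ratio of 1.19 for 24 h over 0 h and 2.29 for 96 h over 0 h in the 7.5-kb windows, against -0.05 and 0.40 at CCL2. CCR2, the receptor of CCL2, had 0.60 and 0.50, and CCR3, the receptor of CCL11, had 0.23 and 0.49. After CTCF depletion CCR1 had -2.35, CCR2 had -1.50 and CCR3 had -0.89, and CCL2 had -1.46. Each of these values at the receptor genes passed the threshold, and the difference between the loci was not tested. Of all windows, 22.6% were called up for 24 h over 0 h, 28.5% up for 96 h over 0 h and 45% down after depletion. From the boundary site of the CCR1 locus, 96 h over 0 h was 1.26 at CCR1, called up, and -0.69 at CCR2, called down. CCR3 had 0.05 there and was not called.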

How the data were processed

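Tri-C was performed by the study on formaldehyde-fixed BLaER1 cells digested with NlaIII and enriched in repeated captures with viewpoint oligonucleotides. The counts were deposited by the authors as one table per viewpoint and library, made by alignment to hg38 with CapCruncher, merging of the replicates and counting of all fragment pairs in reads with at least 2 reporters on the viewpoint's chromosome. Fragments are given by their positions, and all 179496 fragment entries of the CCL2 tables had NlaIII sites at both ends in hg38. Viewpoint fragments are the NlaIII fragments that hold the study's capture oligonucleotides. No normalization was applied before deposit. Reads with several reporters give several counts, which are not independent.

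Here, counts with both reporters within 1 Mb were the total. Windows of 12 kb (promoter, boundary site, enhancer) and 7.5 kb (promoters, elements) and bins of 5 kb were counted, leaving out reporters within 10 kb of the viewpoint or of each other. Pairs of libraries were compared by a two-sided exact conditional binomial test on at least 20 counts, with a pseudo-count of 0.5 in log2 odds ratios, exact 95% intervals and Benjamini-Hochberg adjustment over the 51 loci, all promoter windows or all bins. Of the 53 loci, 2 were left out, as in the study. Crossing, domain shares and the comparison of CCL2 with other windows used Fisher's exact test with a Woolf interval, because these counts are large parts of their totals; this was decided after the files were seen, as was the set of window comparisons. The scripts were tested on simulated counts. Python 3.11.15, NumPy 2.4.6, pandas 2.3.3, SciPy 1.17.1, pysam 0.24.0 and matplotlib 3.10.9 were used.

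Named were the 6 chemokine genes, other protein-coding genes with a start within 500 kb, receptor genes at CCR1 (1 of them is not reported here), a second chemokine group on chromosome 17, and the 5 bins of largest rise and fall with at least 50 counts. ASIC2 was named after the bins were seen. The locus, genes and elements were chosen with earlier results of these data known. Other widths, totals, distances and count weights were tried as alternatives. Promoter sequences were not used here.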

Additional observations from a re-analysis of the deposited data

Results flagged for a closer look

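A second group of chemokine genes lies farther along chromosome 17, outside the 1 Mb used for all comparisons. Its nearest member, CCL5, is 1659.2 kb from the CCL2 enhancer. It holds 8 genes (CCL5, CCL16, CCL14, CCL15, CCL23, CCL18, CCL3 and CCL4) in an interval of 235.47 kb, and counts with a reporter there were above the 3 counts that a count of 0 allows in all 7 libraries. From the enhancer there were 951 counts in CTCF-depleted cells, and 733 at 0 h, 997 at 24 h and 675 at 96 h. From the boundary site there were 284 counts at 0 h, 240 at 24 h and 164 at 96 h. Intervals of the same length on either side held counts of the same order, with 1671 and 1229 in CTCF-depleted cells and 859 and 787 at 96 h from the enhancer. No test was made on these values.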

How the results depend on the processing

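No paired analysis was possible because each table pools the replicates of its group; leaving out replicates and the replicate block were not run for the same reason, and bins under the windows of 20 kb or the outermost start were not run because neither touches them. No called result turned its direction under any alternative run. The alternatives covered the locus measures, promoter windows, the upstream CTCF site, the downstream enhancers and the numbers of bins called. The comparisons of CCL2 with other windows and the shares with both reporters inside were not rerun. Of the triples, only that of the enhancer, CCL2 and the boundary site was rerun. Of the values short of the threshold, 6 crossed 0 under at least 1 alternative. Among them were the enhancer, CCL2 and boundary triple for 24 h over 0 h (0.16, and -0.089 with windows of 20 kb) and CCL7 from the enhancer for 24 h over 0 h (0.13, and -0.045 with a distance of 20 kb). The upstream CTCF site from the boundary for 96 h over 24 h was another (0.019, and -0.0070 with windows of 12 kb). Contact with the CCL2 promoter for 24 h over 0 h was -0.14 scaled to the whole chromosome and -0.18 with a distance of 20 kb, both calls of a fall, and crossing for 24 h over 0 h was -0.026 with a distance of 20 kb. The enhancer, CCL2 and boundary triple for 96 h over 24 h was 0.55 in windows of 7.5 kb, no longer called. From the boundary site, CCL2 for 24 h over 0 h was called at 0.22 (windows of 20 kb) and 0.24 (distance of 5 kb), and the enhancer at 0.16 (windows of 20 kb). The enhancer for 96 h over 24 h was no longer called at 0.19 (7.5 kb), 0.12 (20 kb) and 0.18 (counts divided by 3). The boundary triple was no longer called at 1.32 (7.5 kb) and 0.91 (divided by 3) for 96 h over 0 h, nor at 0.67 and 0.78 for 96 h over 24 h. The downstream enhancers for 24 h over 0 h had intervals that included 0, at -0.062 (windows of 20 kb), -0.080 (distance of 5 kb), -0.12 (each pair once) and -0.20 (divided by 3), and at 0.35 from the boundary site (divided by 3). Of the chemokine promoters seen from the enhancer for 24 h over 0 h, 3 rose, but 5 did with windows of 12 kb or a distance of 5 kb and 1 with the whole chromosome, a distance of 20 kb or counts divided by 3. Between 96 h and 24 h, 4 rose, while 6 did with windows of 12 kb or 20 kb and 1 with counts divided by 3. For 96 h over 0 h, 6 rose, but 4 with a distance of 20 kb or counts divided by 3. From the boundary site for 24 h over 0 h, 1 rose, but 3 did with windows of 20 kb and 0 scaled to distant counts or divided by 3. The CCL2 window of 7.5 kb for 96 h over 0 h was 0.15 with a distance of 20 kb (adjusted p = 0.0836, exact test). Bins called from the enhancer for 24 h over 0 h were 13 up and 34 down, and became 21 and 19 with distant counts, 8 up with a distance of 20 kb, 11 down with each pair once, and 2 and 0 divided by 3. Their counts for 96 h over 0 h, 32 up and 93 down became 20 up with a distance of 20 kb, and 17 and 14 divided by 3. Those for 96 h over 24 h, 24 up and 50 down became 12 up with a distance of 20 kb, 15 and 29 with each pair once, and 6 and 1 divided by 3. For depleted over 96 h, 26 up became 86 with distant counts, 50 with each pair once and 6 divided by 3. From the boundary site for 24 h over 0 h, 11 up and 4 down became 7 and 12 with distant counts, 7 and 1 with each pair once, and 0 and 0 divided by 3. There, for 96 h over 0 h, 27 up and 20 down became 13 down with the whole chromosome, 12 down with a distance of 20 kb, 7 down with each pair once, and 7 and 1 divided by 3. Likewise 96 h over 24 h, with 10 up and 12 down, had 21 down with a distance of 5 kb, 7 down with 20 kb, 5 down with each pair once, and 2 and 0 divided by 3. The cause of these changes was not tested, except that dividing the counts by 3 lowers the depth. Contact with CCL2 in depleted cells kept its call and ranged between -1.47 and -0.96, and that for 96 h over 0 h between 0.27 and 0.55. Triples rest on fewer than 110 counts.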
